A study of Mus musculus with 1824 samples.

Results

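Plates 3 and 4 of the E8.5 collection hold single mouse cells sorted at embryonic day 8.5, when the first vessels and blood cells form. Of 96 wells on each plate, 83 on plate 3 and 82 on plate 4 had at least 100000 reads and were kept, 165 cells of 693 kept at E8.5 and of 1824 wells in the whole series. The study made chimaeras by injecting 1 line of Tet triple-knockout (TKO) embryonic stem cells, which carry a red H2B-tdTomato label and lack Tet1, Tet2 and Tet3, into C57BL/6J wild-type blastocysts. Several embryos were pooled and dissociated, and cells were sorted by the label and by the surface proteins KDR and CD41, with gates for erythroid cells, haematoendothelial progenitors, blood progenitors and double-negative cells of both genotypes. The sample labels give CD1 as strain and the embryo as tissue, and they name a plate and a well for each cell, but neither genotype, gate nor animal. Genotype, sort gate and plate therefore cannot be told apart here, and the comparison is one of plates. Each plate counts as 1 sample, so no test between the plates was possible and differences are given as values with intervals that cover counting error only.

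The Smart-seq2 libraries cover whole transcripts, and their amplified reads carry no molecular identifiers, so reads are not independent molecules. Total reads per kept cell ran from 108905 to 1740497 on plate 3, with a median of 651307, and from 112282 to 2076659 on plate 4, with a median of 420157. The deepest wells left out had 97365 reads on plate 3 and 89772 on plate 4. The median number of genes with a read was 7905 and 7790.5, and after thinning every cell to 100000 reads it was 6340 on plate 3 and 6742 on plate 4. Among endothelial-marker cells, which are defined by 5 genes, the median depth was 585410 reads on plate 3 and 416236 on plate 4. Mitochondrial genes took a median of 0.984% of reads on plate 3 and 1.52% on plate 4. On plate 4, well row D gave 3 kept cells, whereas every other row of either plate gave at least 9. No columns of the count table were identical to each other.

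Endothelial cells line all blood vessels. They arise from mesoderm that makes KDR (VEGFR2), the main receptor for vascular endothelial growth factor, under transcription factors such as Etv2, Tal1, Fli1 and Gata2. They are recognised by adhesion and receptor proteins such as VE-cadherin (Cdh5), PECAM1, the angiopoietin receptor Tek, the related receptor Tie1, and the junction protein ESAM. Part of the early endothelium, the haemogenic endothelium, turns on Runx1 and gives rise to blood. Tet enzymes oxidise 5-methylcytosine and so promote DNA demethylation, and the Dnmt enzymes place or copy the methyl mark.

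Kdr was present on both plates in every kept cell, whereas the later endothelial markers were more frequent and higher on plate 3. Levels are given as CPM, the reads of a gene scaled to a total of 1000000, either in single cells or for all reads of a plate summed. Kdr ran from 206 to 3737 CPM in single cells of plate 3 with a median of 1336, and from 38.3 to 2998 CPM on plate 4 with a median of 847. The ranges overlapped over most of their length, and 83 of 83 and 82 of 82 cells reached 20 CPM, the level at which a marker was counted here. KDR protein was among the sort markers, so the presence of Kdr is no finding about these cells. On the other E8.5 plates, summed Kdr was 220.1 CPM on plate 5, 521 on plate 6 and at most 7.87 CPM on plates 1, 2, 7 and 8.

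Cdh5, which holds endothelial junctions together, had a median of 381 CPM in cells of plate 3 and 69.3 CPM in cells of plate 4, with lowest cells at 0 on both plates and highest cells at 1802 and 611 CPM. It reached 20 CPM in 62 of 83 and 47 of 82 cells. Pecam1, a platelet and endothelial adhesion molecule, reached that level in 63 and 39 cells, with medians of 240.1 and 8.3 CPM. On plate 4, cells at or near 0 stood beside cells within the range of plate 3. Tie1 reached 20 CPM in 60 and 44 cells, Tek in 71 and 51 cells and Esam in 71 and 47 cells of plates 3 and 4.

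**Figure D1:**
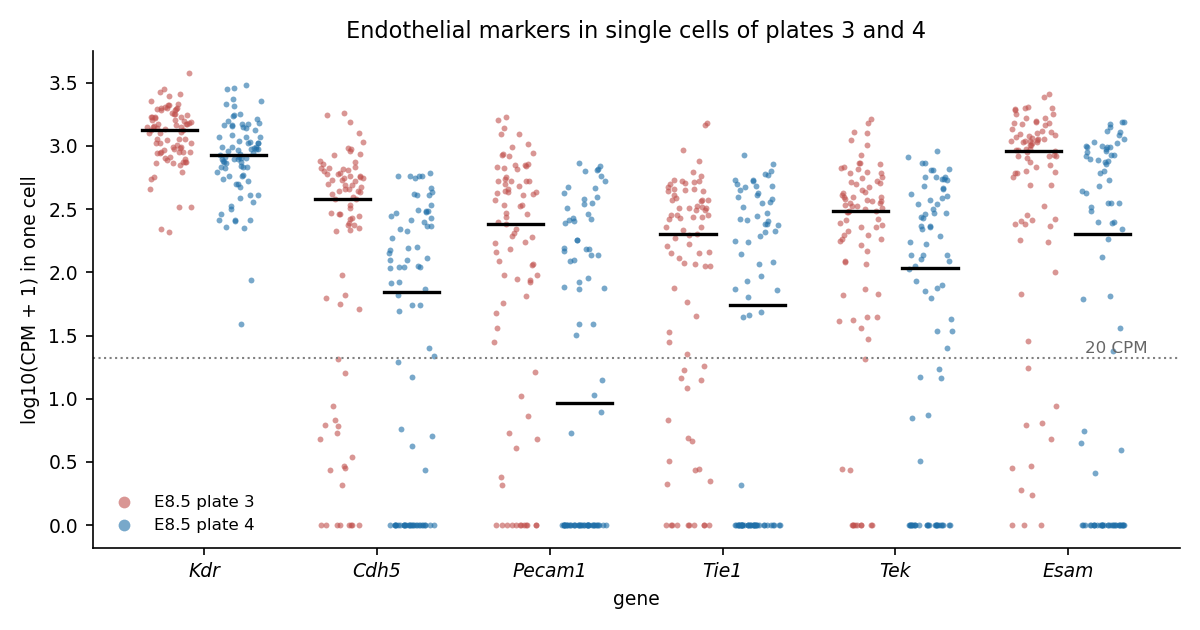
Each point is the level of 1 gene in 1 cell, as log10(CPM + 1), for the 83 cells of plate 3 and the 82 cells of plate 4. Black lines are medians and the dotted line marks 20 CPM. Kdr lies above that line in every cell, and the medians of Cdh5, 381 CPM on plate 3 and 69.3 CPM on plate 4, lie apart.

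Cells with at least 3 of Cdh5, Pecam1, Tie1, Tek and Esam at 20 CPM are called endothelial-marker cells. They were 66 of 83 cells on plate 3, or 79.5% (95% Clopper-Pearson interval 69.2% to 87.6%), and 44 of 82 cells on plate 4, or 53.7% (42.3% to 64.7%). These intervals did not overlap. They cover counting error within a plate only, so overlap or its absence, here and below, is no test between the plates. Most cells lay at the ends of the scale. On plate 3, 56 cells had all 5 markers and 10 had none, and on plate 4, 35 had all 5 and 26 had none. Near the limit, 4 cells of plate 3 and 1 of plate 4 had exactly 3 markers, and 4 and 6 cells had 2. In wells of columns 1 to 6 the shares were 76.2% and 45.2%, and in columns 7 to 12 they were 82.9% and 62.5%. Plate 3 was the higher in both parts, but the parts of a plate belong to 1 sample and are no replicates. Among the other E8.5 plates, plate 6 had 82 endothelial-marker cells, plate 5 had 47, plate 2 had 7 and the remainder had 0.

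Mesenchyme and allantois markers were met by more cells of plate 4. Marker classes were counted over all kept cells in the same way, with at least 3 of 5 markers at 20 CPM, and a cell may fall into several classes. Mesenchyme markers, from Hand1, Foxf1, Pdgfra, Col1a2 and Postn, were found in 4 cells (4.82%, interval 1.33% to 11.9%) of plate 3 and 21 cells (25.6%, 16.6% to 36.4%) of plate 4. Allantois markers, from the extraembryonic mesoderm that becomes the umbilical vessels, were found in 2 cells (2.41%, 0.293% to 8.43%) and 15 cells (18.3%, 10.6% to 28.4%). Those intervals did not overlap, whereas those of pharyngeal mesoderm, with 2 and 10 cells (2.41% and 12.2%), did overlap. The haemangioblast list, the early factors Etv2, Tal1, Lmo2 and Fli1 with Kdr, was met by 70 cells (84.3%) and 60 cells (73.2%), again with overlapping intervals, and 58 and 42 of these were endothelial-marker cells. Every kept cell had Kdr at 20 CPM, so 1 of the 3 markers needed for this list was met in advance. Endocardial markers, of the inner lining of the heart, were found in 15 and 8 cells, of which 14 and 5 were endothelial-marker cells, paraxial mesoderm markers in 2 and 0, and intermediate mesoderm markers in 1 and 0.

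**Figure D2:**
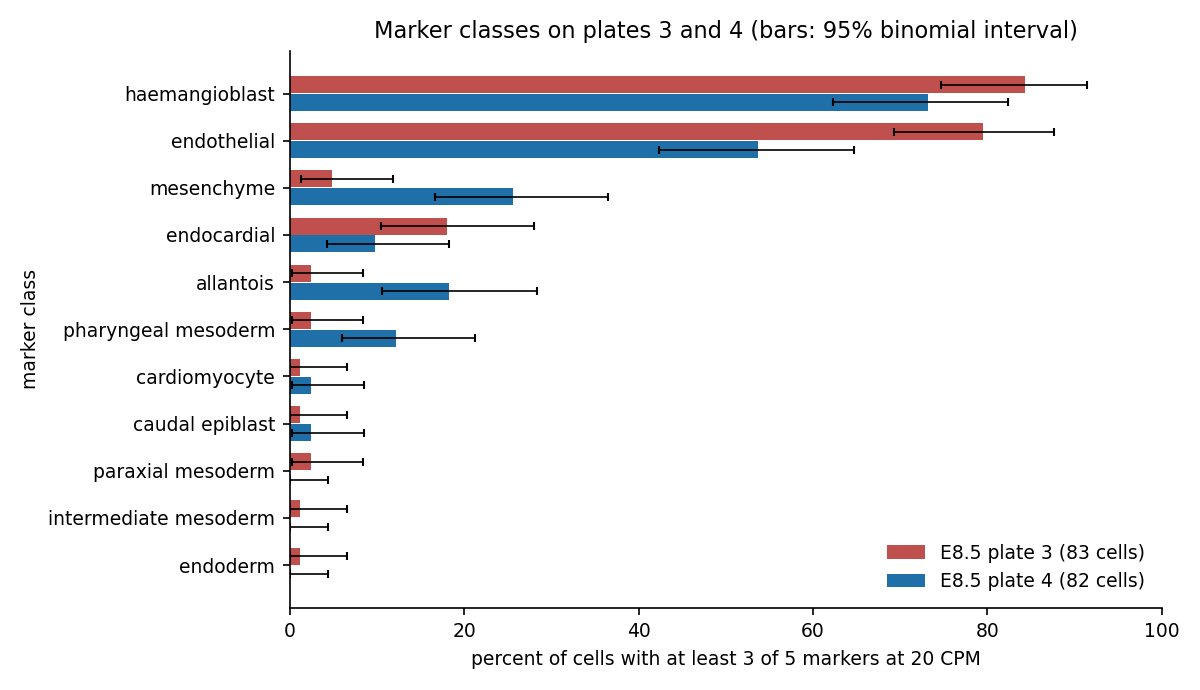
Bars give the percentage of kept cells on each plate with at least 3 of 5 markers of a class at 20 CPM, and thin lines give 95% Clopper-Pearson intervals. Endothelial markers were met by 79.5% of cells on plate 3 and 53.7% on plate 4, and mesenchyme markers by 4.82% and 25.6%. Classes met by no cell on either plate are left out.

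Of the cells outside the endothelial-marker set, 17 on plate 3 and 38 on plate 4, mesenchyme markers were met by 4 cells (23.5%, 6.81% to 49.9%) and 19 cells (50%, 33.4% to 66.6%). Allantois markers were met by 2 (11.8%, 1.46% to 36.4%) and 15 (39.5%, 24.04% to 56.6%), pharyngeal mesoderm markers by 2 and 8, paraxial mesoderm markers by 2 and 0 and the haemangioblast list by 12 (70.6%, 44.04% to 89.7%) and 18 (47.4%, 30.98% to 64.2%). All of these intervals overlapped between the plates. Their Kdr remained high, at 1181 and 849 CPM for summed reads. Etv2, the first factor of the endothelial and blood programme, was at 573 and 209 CPM. Pitx1, a homeobox factor of posterior mesoderm, was at 20 CPM or more in 4 of the 17 cells and 27 of the 38, and Hand1, a factor of lateral and extraembryonic mesoderm, in 5 and 22. The heart muscle genes Myl7 and Actc1 stood high on plate 3 through 1 cell, which gave 94.1% of the Myl7 reads and 99.6% of the Actc1 reads of that plate.

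No cell met a blood class. Erythroid, blood progenitor, megakaryocyte and myeloid markers were each met by 0 of 83 and 0 of 82 cells, which allows shares of up to 3.61% and 3.66%. Runx1 was at 1.8 CPM on plate 3 and 2.3 CPM on plate 4, against 218.7 CPM on plate 5, 151 on plate 2 and 86.1 on plate 6, the other plates with endothelial-marker cells. Itga2b, which encodes the sort marker CD41, was at 70.3 and 57.6 CPM and reached 20 CPM in 29 cells of each plate. The globins Hbb-bh1 and Hba-x were below 10 CPM in the summed reads of both plates, at 8.08 and 5.16 CPM on plate 3 and 0.404 and 0.126 CPM on plate 4. Of the label haematoendothelial, the endothelial markers were thus present, Itga2b was present in part of the cells, and Runx1 and these globins were low.

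Across all genes, reads were summed over the kept cells of a plate, and the log2 ratio of plate 3 over plate 4 was taken after adding 1 CPM, which understates ratios of low genes. Of 9570 genes with at least 10 CPM on either plate, 618 (6.46%) were at least 2-fold higher on plate 3 and 512 (5.35%) at least 2-fold higher on plate 4, with a median log2 ratio of 0.01. Within endothelial-marker cells, 9410 genes passed the limit, 743 (7.90%) were 2-fold higher on plate 3 and 520 (5.53%) on plate 4, with a median of 0.02. Both directions together made 13.4% of genes, and for plates 5 and 6, compared in the same way within their endothelial-marker cells, they made 18.5%. The selected cells of plates 5 and 6 differed in make-up. Blood progenitor markers were met by 46 of 47 on plate 5 and 36 of 82 on plate 6, and myeloid markers by 22 and 2. On plates 3 and 4 both classes were met by 0 cells, so the 18.5% is no level for like cells. Of the genes higher on plate 3, 421 passed in both sets of cells, 68.1% of the list from all cells and 56.7% of that from endothelial-marker cells. Of the genes higher on plate 4, 287 did, 56.1% and 55.2% of the lists. The 2 sets share cells, so these are counts and no independent support. Counting error on such sums was small if reads are treated as independent, which amplified reads are not, so intervals on reads are too narrow. For Kdr the plate values were 1385 and 1047 CPM in all cells, and the 95% Poisson-based interval of their log2 ratio, taken without the added 1 CPM, was 0.39 to 0.42. Under alternative choices of cells and processing that ratio ran from 0.32 to 0.48. In summed reads, fewer cells of a type and less RNA per cell cannot be told apart.

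**Figure D3:**
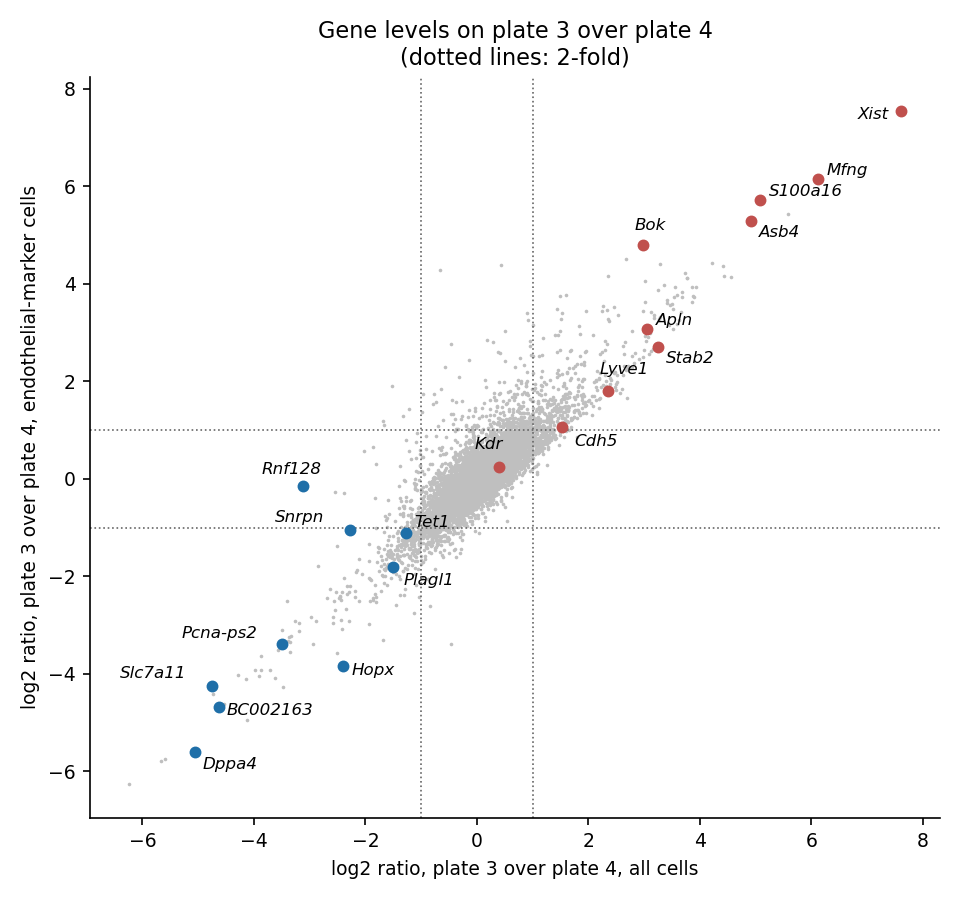
Each point is a gene with at least 10 CPM on either plate in both sets of cells. The axes give the log2 ratio of plate 3 over plate 4 for all cells (x) and endothelial-marker cells (y), and dotted lines mark 2-fold. In both sets Xist and then Mfng lie far out on the side of plate 3, and Dppa4 on that of plate 4. Kdr lies near 0, and Rnf128, at -3.12 in all cells, lies near 0 within endothelial-marker cells.

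Leading genes were those with the largest ratios among genes with at least 20 CPM on the higher plate and a share of cells at 20 CPM that differed by at least 25 percentage points. On the side of plate 3, apart from Xist, they were led by Mfng and S100a16. Mfng (Manic fringe), which adds sugars to Notch receptors, was at 94.6 CPM on plate 3 and 0.379 CPM on plate 4 and reached 20 CPM in 45 of 83 and 2 of 82 cells. Its log2 ratio was 6.12 in all cells and 6.15 within endothelial-marker cells, where the median cell had 82.7 CPM on plate 3 and 0 on plate 4. S100a16, a calcium-binding protein, was at 124 and 2.7 CPM and reached 20 CPM in 51 and 4 cells. Single cells ran from 0 to 785 CPM on plate 3 with a median of 59.9, and from 0 to 91.2 CPM on plate 4 with a median of 0. Asb4, a substrate-binding part of a ubiquitin ligase, was at 159 and 4.32 CPM in 47 and 6 cells. For each of the 3, most cells of plate 4 were below 20 CPM, although the highest reached 191 CPM of Asb4.

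Others on that side were of mixed function. Pairs of values give plate 3 before plate 4 unless the plates are named. Within endothelial-marker cells they included the sterol exporter Abcg1 (51.8 against 2.92 CPM, log2 ratio 3.75), the unconventional myosin Myo7a (106 against 7.14 CPM, log2 ratio 3.72), and the potassium channel subunit Kcne3 (67.4 against 2.83 CPM, log2 ratio 4.16). Matrix genes were among them, with the collagen chain Col5a2 (57 against 2.11 CPM, log2 ratio 4.22) and the microfibril protein Mfap2 (70.6 against 2.16 CPM, log2 ratio 4.50). The Bcl-2 family member Bok (106 against 2.83 CPM, log2 ratio 4.80), Lrrc32, which tethers latent TGF-beta (76.3 against 2.73 CPM, log2 ratio 4.37), and the Ral exchange factor Ralgds (26.2 against 0.623 CPM, log2 ratio 4.07) completed the leading genes of these cells. In all cells, Slfn9 (41.1 against 0.783 CPM, log2 ratio 4.56) and 3 genes known from blood cells also led, namely Laptm5 (35.1 against 1.84 CPM, log2 ratio 3.67), Ptpn7 (40.2 against 2.32 CPM, log2 ratio 3.63) and Adgrg3 (59 against 3.96 CPM, log2 ratio 3.60). All 3 were higher still on plate 5, with Laptm5 at 348 CPM, Ptpn7 at 239 CPM and Adgrg3 at 99.3 CPM.

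On the side of plate 4, Dppa4, a chromatin-associated gene of pluripotent and germ cells, was at 69 CPM against 1.09 CPM on plate 3 (log2 ratio -5.06) and reached 20 CPM in 37 of 82 and 4 of 83 cells. Slc7a11, the cystine importer, was at 39.1 CPM on plate 4 and 0.487 CPM on plate 3 and reached 20 CPM in 55 cells of plate 4 and 0 of plate 3. Its highest cell on plate 3 had 3.46 CPM, below the plate 4 median of 30.4 CPM, and the highest on plate 4 had 158 CPM. Fmr1nb, an X-linked gene best known from testis, was at 32 CPM on plate 4 and 0.369 CPM on plate 3, with 23 and 0 cells at 20 CPM. Of these 3, Slc7a11 was the one found in most cells of plate 4. Within endothelial-marker cells the ratio was -5.61 for Dppa4, -4.25 for Slc7a11 and -4.63 for Fmr1nb.

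Processed pseudogenes formed a further part of the genes higher on plate 4. In all cells 35 of the 512 (6.84%) were annotated as pseudogenes, against 4 of 618 (0.647%) of those higher on plate 3 and 2.24% of all genes past the limit. BC002163 (chr16:42955631-42955949, GRCm38) was at 36.3 CPM on plate 4 and 0.504 CPM on plate 3, and reached 20 CPM in 65 and 0 cells. Pcna-ps2 (chr19:9283380-9284160), a copy of the replication clamp gene, was at 39.6 CPM on plate 4 and 2.6 CPM on plate 3, in 71 and 0 cells. Atp6v0c-ps2 (chr6:37806086-37806550) was at 24.9 CPM on plate 4 and 1.48 CPM on plate 3, and AC131675.2 at 28.4 and 0.101 CPM. On plate 4 the cell with most reads gave 12.8% of those of AC131675.2 and a smaller percentage for the other three. The parent gene Pcna was at 302 and 305 CPM, a log2 ratio of -0.01. How reads shared by near-identical copies were counted is not stated, so the values of pseudogenes are uncertain.

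Among other genes higher on plate 4, those of all cells and those of endothelial-marker cells differed. Rnf128, a ubiquitin ligase, was at 17.4 against 159 CPM (log2 ratio -3.12) in all cells but at 12.3 against 13.8 CPM (log2 ratio -0.15) within endothelial-marker cells. Pitx1 was at 8.67 against 76.6 CPM (log2 ratio -3.01) in all cells and at 0.799 against 1.44 CPM within them. The glycosyltransferase B3galnt1 (2.3 against 24.2 CPM, log2 ratio -2.93) was a further leader of all cells. Within endothelial-marker cells the leaders included the homeodomain-only protein Hopx (1.43 against 33.9 CPM, log2 ratio -3.85), the volume-regulated channel subunit Lrrc8a (3.22 against 31.8 CPM, log2 ratio -2.96), the surface antigen Ly6c1 (2.03 against 24.6 CPM, log2 ratio -3.08) and the membrane protein Tmem221 (0.324 against 39.7 CPM, log2 ratio -4.94). Of these, Lrrc8a reached 20 CPM in 28 of the 44 cells and Hopx in 23, whereas Tmem221 took 47.8% of its reads from 1 cell.

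The rule for leading genes did not use the other E8.5 plates, but the genes shown here were picked after their values there were seen. BC002163 was at 36.7, 37.5 and 29.3 CPM on plates 2, 6 and 8 and at 0.656, 0.21 and 0.136 CPM on plates 1, 5 and 7. Pcna-ps2 was at 50.5, 49.5 and 39.5 CPM on the former and 2.93, 1.98 and 2.51 CPM on the latter. For both genes plate 4 lay with plates 2, 6 and 8, and plate 3 with plates 1, 5 and 7, and no plate lay between. Dppa4 split the plates in the same way, at 74.2, 70.2 and 18.4 CPM against 0.428, 0 and 1.31 CPM. The labels put no group on these plates, so no average or test was made over them.

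Atp6v0c-ps2, AC131675.2 and, in the other direction, Xist also divided the plates in this way. Several other leading genes did not. Fmr1nb was at 67.1 CPM on plate 1, above the 36.1 CPM of plate 2. Mfng was at 129.6 CPM on plate 5 and 21.5 CPM on plate 6, the pair with the most endothelial-marker cells among the other plates, and at 10.1 CPM or less on the others. S100a16 was highest on plate 3, followed by 22.9 CPM on plate 1, and Kcne3 did not exceed 7.5 CPM elsewhere.

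**Figure D4:**
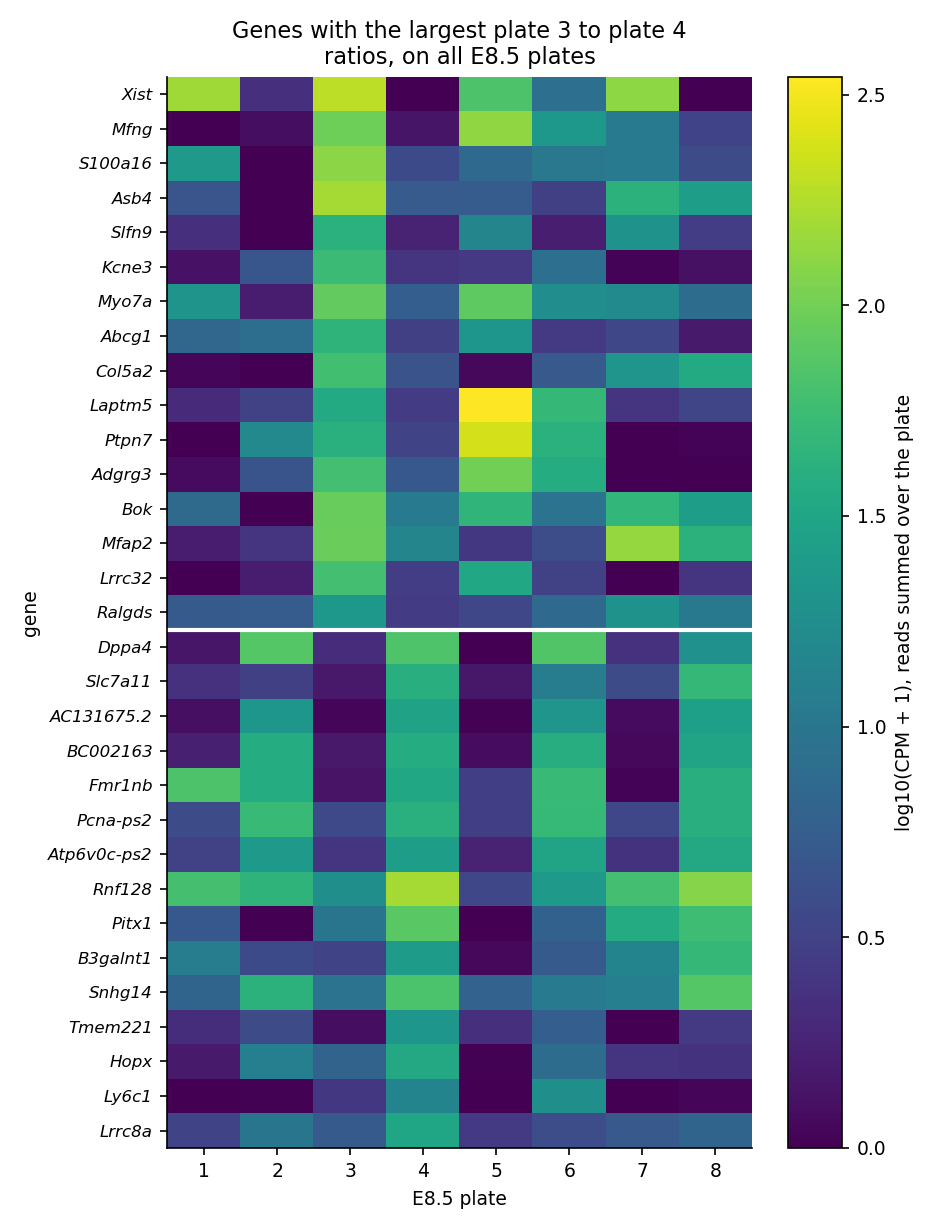
Colours give log10(CPM + 1) for reads summed over the kept cells of each E8.5 plate. Rows are leading genes chosen by the rule above, those higher on plate 3 above the white line and those higher on plate 4 below it. BC002163 and Pcna-ps2 are high on plates 2, 4, 6 and 8 and low on plates 1, 3, 5 and 7.

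Promoters are shown for 4 genes that led in both sets of cells, chosen after their values were seen, since the enzymes at the centre of the study act on cytosines of CG dinucleotides. Each stretch holds the 250 bases before the RefSeq gene start (GRCm38.p6), 5′ to 3′ on the strand of the gene, with every CG in capitals. Asb4 (chr6:5383136-5383385, plus strand) and S100a16 (chr3:90537004-90537253, plus strand) were higher on plate 3, and Slc7a11 (chr3:50443614-50443863, minus strand) and Fmr1nb (chrX:68761589-68761838, plus strand) on plate 4.
Asb4: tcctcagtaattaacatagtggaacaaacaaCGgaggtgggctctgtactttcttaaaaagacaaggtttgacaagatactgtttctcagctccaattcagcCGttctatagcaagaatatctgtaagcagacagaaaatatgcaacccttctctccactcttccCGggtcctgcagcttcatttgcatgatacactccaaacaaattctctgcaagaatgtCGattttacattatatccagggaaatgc
S100a16: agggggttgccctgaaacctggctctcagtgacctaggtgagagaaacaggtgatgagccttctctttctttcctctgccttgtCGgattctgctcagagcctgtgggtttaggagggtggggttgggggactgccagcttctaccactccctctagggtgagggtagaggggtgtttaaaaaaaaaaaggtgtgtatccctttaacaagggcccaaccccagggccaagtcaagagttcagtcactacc
Slc7a11: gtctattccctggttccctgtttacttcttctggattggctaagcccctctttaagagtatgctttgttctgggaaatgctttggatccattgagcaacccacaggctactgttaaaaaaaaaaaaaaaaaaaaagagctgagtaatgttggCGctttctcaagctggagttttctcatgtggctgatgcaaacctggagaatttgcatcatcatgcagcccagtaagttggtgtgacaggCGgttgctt
Fmr1nb: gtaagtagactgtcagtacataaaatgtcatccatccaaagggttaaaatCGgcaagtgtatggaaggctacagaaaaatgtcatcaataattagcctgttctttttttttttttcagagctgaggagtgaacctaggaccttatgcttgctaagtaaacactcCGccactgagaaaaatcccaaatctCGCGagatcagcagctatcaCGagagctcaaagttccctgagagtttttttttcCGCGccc
These windows held 4, 1, 2 and 7 CG, on either strand since the motif reads alike on both. The median was 17 over the 7452 genes past the limit in all cells whose symbol had such a window, 13 over 461 of the genes higher on plate 3 and 14 over 359 of those higher on plate 4. At least 10 CG were held by 80.6%, 61.8% and 69.1% of these and by 38.2% of all 27025 windows. The letters say nothing of the methylation of these sites, which was not analysed here. The study reported that TET-dependent demethylation was confined to distal regulatory elements and was negligible at promoters.

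Endothelial receptor and junction genes had higher levels on plate 3, with smaller ratios once cells were matched by markers. Of 18 genes, 10 were at least 2-fold higher on plate 3 and 0 on plate 4 in all cells, with a median log2 ratio of 1.25, against 6.46% and 0.01 for all genes. Cdh5, Pecam1, Tie1, Tek and Esam chose the endothelial-marker cells, so their values there are a description and they are left out of the count. Of the other 13 genes, 8 were 2-fold higher on plate 3 in all cells, with a median of 1.49, and 5 within endothelial-marker cells, with a median of 1.00, against 7.90% and 0.02 for all genes there. Mcam, a pericyte and endothelial adhesion molecule, was at 201 against 76 CPM (log2 ratio 1.39) within them, and endoglin (Eng), a TGF-beta co-receptor, at 602 against 233 CPM (log2 ratio 1.37). Plvap, of the diaphragms of endothelial pores, was at 1642 against 721 CPM (log2 ratio 1.19) and Cd34 at 625 against 279 CPM (log2 ratio 1.16). Flt1, which binds VEGF with little signalling, was at 764 against 362 CPM (log2 ratio 1.07) and Cdh5 at 501 against 239.6 CPM (log2 ratio 1.06), the latter at a log2 ratio of 0.98 both without the 2% of cells with most reads and with each cell thinned to 100000 reads. The ratios of Kdr, Flt4, Tek and Tie1 were closer to 0, with Kdr at 1443 against 1225 CPM (log2 ratio 0.24), Flt4 at 392 against 346 CPM (log2 ratio 0.18), Tek at 410.04 against 399.7 CPM (log2 ratio 0.04) and Tie1 at 308 against 326 CPM (log2 ratio -0.08). In all cells these were 1385 against 1047 CPM (log2 ratio 0.40) for Kdr and 239 against 172 CPM (log2 ratio 0.47) for Tie1.

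Endothelial transcription factors differed less than the receptors. Of 14, Gata2, a factor of haemogenic endothelium, was 2-fold higher on plate 3 in both sets of cells, and 0 were 2-fold higher on plate 4. That count is close to the 6.46% and 7.90% of all genes. Gata2 was at 79.1 against 30.7 CPM (log2 ratio 1.34) in all cells and 94.2 against 37.6 CPM (log2 ratio 1.30) within endothelial-marker cells, where 41 of 66 and 19 of 44 cells reached 20 CPM. Etv2 was at 169.6 against 134 CPM (log2 ratio 0.34) in all cells, with 38 and 46 cells at 20 CPM, and at 54.1 against 65.8 CPM (log2 ratio -0.28) within endothelial-marker cells. Fli1, a core endothelial ETS factor, was at 322 against 366 CPM (log2 ratio -0.18) and Sox7 at 168 against 256 CPM (log2 ratio -0.61). The list's median was 0.51 in all cells and 0.15 within endothelial-marker cells, and its members lay on both sides of 0 there, 8 above and 6 below.

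Of 14 factors of haemogenic endothelium and blood progenitors, 5 passed the limit of 10 CPM. Among all genes, 6.46% were 2-fold higher on plate 3 in all cells and 7.90% within endothelial-marker cells. Cbfa2t3, a co-repressor of blood and endothelial cells, was higher on plate 3 in both sets (28.5 against 10.01 CPM, log2 ratio 1.42 within endothelial-marker cells), and Mecom, of blood stem cells, in all cells (48.3 against 16.6 CPM, log2 ratio 1.49). Kit, the stem cell factor receptor, was at 181 against 244 CPM (log2 ratio -0.43) within endothelial-marker cells and Meis1 at 27.3 against 52.5 CPM (log2 ratio -0.92). Runx1, Gfi1 and Spi1 were among the 9 below the limit. Of 14 erythroid genes 2 passed it, both within 2-fold, the transferrin receptor Tfrc (99.1 against 156 CPM, log2 ratio -0.65) and the erythropoietin receptor Epor (11.4 against 8.33 CPM, log2 ratio 0.41).

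Arterial and Notch genes past 2-fold were higher on plate 3. Of 13 past the limit, 5 were 2-fold higher there in all cells, with a list median of 0.18, and 3 within endothelial-marker cells, with a median of 0.65, and 0 were 2-fold higher on plate 4 in either. Of all genes, 6.46% and 7.90% were higher on plate 3. The gap junction genes Gja5 (66.1 against 21 CPM, log2 ratio 1.61) and Gja4 (222 against 98 CPM, log2 ratio 1.17), of arterial endothelium, and the Notch ligand Jag2 (14.7 against 3.55 CPM, log2 ratio 1.79) were the 3. Gja5 reached 20 CPM in 7 of 66 and 7 of 44 cells, and 1 cell gave 73.5% of its reads on plate 3. The receptor Notch4 and the Notch target Hey1 were past 2-fold in all cells (57.7 against 22.2 CPM, log2 ratio 1.34 and 92.9 against 38.8 CPM, log2 ratio 1.24). The arterial ligands Dll4 (105 against 152 CPM, log2 ratio -0.53) and Efnb2 (45.6 against 66.9 CPM, log2 ratio -0.54) had ratios below 0 within endothelial-marker cells.

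Venous and lymphatic genes were led by scavenger receptors of sinusoidal and lymphatic endothelium. Of 8, 3 were 2-fold higher on plate 3 in all cells and 4 within endothelial-marker cells, and 0 on plate 4, where 6.46% and 7.90% of all genes were higher on plate 3. Stab2, a receptor that clears hyaluronan, was at 317 CPM on plate 3 and 32.5 CPM on plate 4 (log2 ratio 3.25) and reached 20 CPM in 18 and 8 cells. Lyve1, a hyaluronan receptor, was at 892 and 174 CPM (log2 ratio 2.36) in 25 and 15 cells. Both genes were thus carried by a minority of cells on either plate, with single cells up to 3655 CPM of Stab2 and 11384 CPM of Lyve1 on plate 3. Stab1 was broader, with 66 and 35 cells at 20 CPM and 465 against 223 CPM (log2 ratio 1.06) within endothelial-marker cells. Prox1, the lymphatic factor, was at 11.9 against 3.59 CPM (log2 ratio 1.49) there, in 5 and 2 cells. The venous factor Nr2f2 (33.5 against 20.5 CPM, log2 ratio 0.68) and receptor Ephb4 (169 against 124 CPM, log2 ratio 0.44) stayed within 2-fold. Of the 8 ratios within endothelial-marker cells, 6 were above 0 and 2 below. Aplnr was among the latter, at 489 against 670 CPM there, with 59 of 66 and 44 of 44 cells at 20 CPM. On other plates Stab2 did not exceed 5.21 CPM, and Lyve1 reached 209.97 CPM on plate 5.

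Ligands of vessel growth went both ways. Of 6 past the limit in all cells, Apln, the apelin of sprouting tip cells, and Angpt2, an antagonist of Tek, were higher on plate 3 (57.7 against 6.06 CPM, log2 ratio 3.06 and 10.2 against 1.16 CPM, log2 ratio 2.37), and Apela and Vegfc were higher on plate 4 (2.2 against 14.3 CPM, log2 ratio -2.26 and 14.9 against 31.2 CPM, log2 ratio -1.02). Within endothelial-marker cells Apln was at 72 against 7.67 CPM (log2 ratio 3.07) in 29 of 66 and 6 of 44 cells, and Vegfc at 14.2 against 30.7 CPM (log2 ratio -1.06). The chemokine Cxcl12, at 19.5 CPM on plate 3 there, had 1 read on plate 4, and 1 cell gave 64.5% of its plate 3 reads. Of all genes, 6.46% were 2-fold higher on plate 3 and 5.35% on plate 4 in all cells. Within endothelial-marker cells these shares were 7.90% and 5.53%.

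Of 8 DNA methylation and demethylation enzymes past the limit, 1 passed 2-fold, close to the 11.8% of all genes that passed in either direction, and this was Tet1, higher on plate 4. Tet1 was at 23.5 CPM on plate 3 and 57.9 CPM on plate 4 (log2 ratio -1.27, or -0.996 and just within 2-fold in wells of columns 1 to 6) and reached 20 CPM in 24 of 83 and 49 of 82 cells. Within endothelial-marker cells it was at 22.7 against 50.3 CPM (log2 ratio -1.11), and that ratio was within 2-fold in wells of columns 1 to 6 only (-0.58), as a mean over single cells (-0.87), with 10 CPM added (-0.88) and with thinned cells (-0.99). Tet2 was at 51.1 against 52.3 CPM (log2 ratio -0.03) and Tet3 at 55.6 against 51.7 CPM (log2 ratio 0.10) in all cells. A cell had none of the 3 Tet genes at 20 CPM in 13 of 83 wells of plate 3 (15.7%, interval 8.61% to 25.3%) and 5 of 82 of plate 4 (6.10%, 2.01% to 13.7%), intervals that overlapped. The maintenance enzyme Dnmt1 was at 246 against 161 CPM (log2 ratio 0.61), its partner Uhrf1 at 398 against 283 CPM (log2 ratio 0.49), and the de novo enzymes Dnmt3a at 189 against 164 CPM (log2 ratio 0.21) and Dnmt3b at 123 against 85.7 CPM (log2 ratio 0.51). On other plates Tet1 ran from 10.4 CPM on plate 1 to 83.2 CPM on plate 8, with 49.8 CPM on plate 7. Counts per gene do not show whether a transcript is intact, and which plates hold Tet triple-knockout cells was not inferred from them.

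Imprinted genes are expressed from 1 parental copy. Of 16, 6 were 2-fold higher on plate 4 and 0 on plate 3 in all cells, with a median log2 ratio of -0.76, against 5.35% of all genes higher on plate 4. Within endothelial-marker cells 4 were 2-fold higher on plate 4, against 5.53% of all genes, and 1 on plate 3, and the median was -0.17. Snrpn, a splicing protein gene, was at 66.2 against 326 CPM (log2 ratio -2.28) in all cells and 61.6 against 129 CPM (log2 ratio -1.05) within endothelial-marker cells. Its neighbour Snhg14 (chr7:59307924-59975759, GRCm38), a long non-coding RNA that runs opposite to other genes, was at 8.25 against 65.4 CPM (log2 ratio -2.85) in all cells, and strand was not stated for the counting. Plagl1, a growth-restricting zinc finger gene, was at 205 against 718 CPM (log2 ratio -1.80) and Impact, a translation regulator, at 57.4 against 183 CPM (log2 ratio -1.66) within endothelial-marker cells, while Dlk1 was at 21 against 56.3 CPM (log2 ratio -1.38). These 4 list members passed in both sets. Phlda2 (106 against 436 CPM, log2 ratio -2.03) and Cdkn1c (73.3 against 183 CPM, log2 ratio -1.31) passed in all cells, with ratios of 0.56 and -0.03 within endothelial-marker cells. Grb10 (628 against 302 CPM, log2 ratio 1.05) was the member higher on plate 3. On other plates Snrpn was at 200.2, 158 and 476 CPM on plates 2, 6 and 8 and at 52, 55.4 and 124 CPM on plates 1, 5 and 7.

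Of 5 sex-linked genes, 4 were 2-fold higher on plate 3 in both sets of cells. Among all genes these shares were 6.46% in all cells and 7.90% within endothelial-marker cells. Xist, the RNA that silences 1 X chromosome in female cells, was at 194 CPM on plate 3 and had 0 reads on plate 4. Against a limit of 3 reads over all cells of plate 4, 0.0757 CPM, it was at least 11.33 higher on the log2 scale on plate 3. On plate 3, 32 cells had Xist at 20 CPM without the Y-linked genes, 45 had the sum of Ddx3y, Eif2s3y, Kdm5d and Uty at 20 CPM without Xist, 1 had both and 5 neither. Plate 3 thus held cells of both kinds, almost without overlap. On plate 4, 0 of 82 cells had Xist at 20 CPM, which allows a share of up to 3.66%, 19 had the Y-linked sum (23.2%, interval 14.6% to 33.8%) and 63 had neither. Ddx3y was at 33.3 against 3.56 CPM (log2 ratio 2.91), Eif2s3y at 36.3 against 6.92 CPM (log2 ratio 2.24) and Kdm5d at 11.6 against 1.74 CPM (log2 ratio 2.20) in all cells, while Uty was at 14.6 against 8.89 CPM (log2 ratio 0.66). Reads of Xist and of its antisense partner cannot be told apart without strand. Without the Xist cells of plate 3, 7.98% and 6.76% of genes were 2-fold higher on plates 3 and 4 in all cells.

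**Figure D5:**
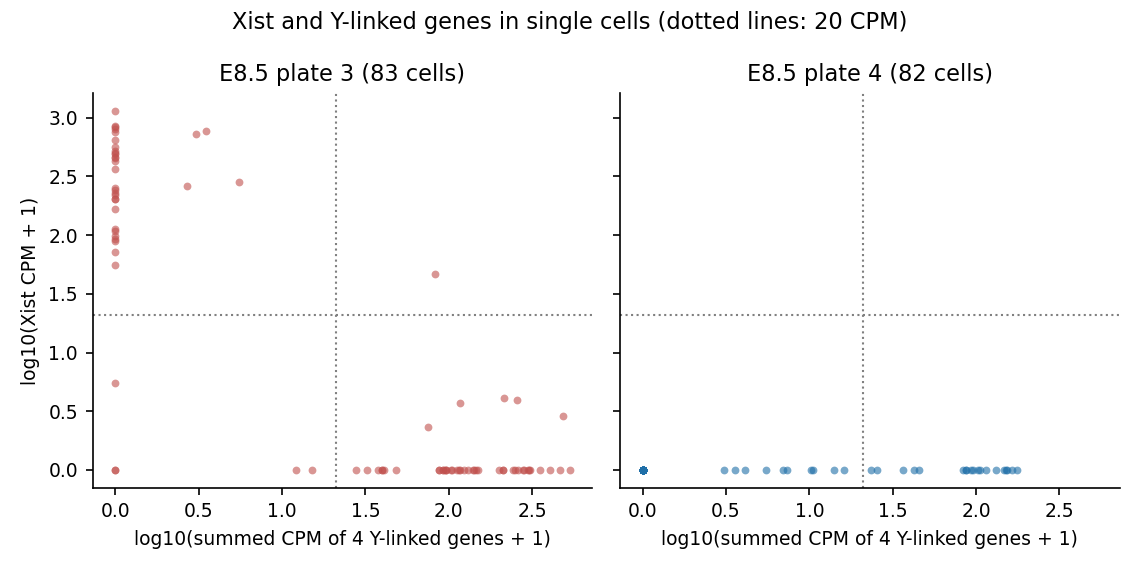
Each point is a cell, with the summed level of 4 Y-linked genes (x) and of Xist (y) as log10(CPM + 1), and dotted lines mark 20 CPM. On plate 3, 32 cells had Xist only and 45 the Y-linked genes only, and on plate 4, 0 cells had Xist and 63 had neither.

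Genes of the posterior body were mostly higher on plate 4 in all cells, where more cells lay outside the endothelial-marker set. Whether those cells carried the difference was not tested. Of 8 posterior Hox genes past the limit in all cells, 5 were 2-fold higher on plate 4, against 5.35% of all genes, and 0 on plate 3, among them Hoxa9 (13.5 against 50.01 CPM, log2 ratio -1.81), Hoxd9 (4.53 against 12.8 CPM, log2 ratio -1.32) and Hoxa10 (15.6 against 37.3 CPM, log2 ratio -1.21). Within endothelial-marker cells 4 passed the limit, Hoxa7 (1.6) and Hoxa10 (1.43) higher on plate 3 and Hoxa9 (-1.01) and Hoxb7 (-1.50) higher on plate 4 by log2 ratio. For each list in this paragraph, 6.46% of all genes were 2-fold higher on plate 3 and 5.35% on plate 4 in all cells. Within endothelial-marker cells these shares were 7.90% and 5.53%. Of 10 FGF and ERK genes past the limit in all cells, Fgf8 (1.01 against 11.1 CPM, log2 ratio -2.59), Fgfr2 (5.29 against 17.2 CPM, log2 ratio -1.54) and Spry1 (12.1 against 27.3 CPM, log2 ratio -1.10) were higher on plate 4, and the ERK phosphatase Dusp6 on plate 3 (306 against 128 CPM, log2 ratio 1.25). Within endothelial-marker cells Spry4 (24.3 against 10.2 CPM, log2 ratio 1.18) was higher on plate 3, Spry1 had a ratio of -1.12, and Fgf3 was at 3.996 against 29.5 CPM (log2 ratio -2.61), with 1 cell giving 47.1% of its plate 4 reads. Of 8 Nodal and BMP genes, all had ratios below 0 in all cells and 2, Bmp7 (7.98 against 25.4 CPM, log2 ratio -1.56) and the inhibitor Smad7 (4.65 against 11.4 CPM, log2 ratio -1.14), passed 2-fold, whereas within endothelial-marker cells Bmp4 (63.9 against 20.2 CPM, log2 ratio 1.61) and Id2 (81.7 against 32.9 CPM, log2 ratio 1.29) were higher on plate 3. Bmp4 reached 20 CPM in similar shares of these cells, 17 of 66 (25.8%) and 10 of 44 (22.7%).

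Of 5 extraembryonic genes past the limit, the keratin Krt8 (75.2 against 277 CPM, log2 ratio -1.87), Rhox5 (8.97 against 25.8 CPM, log2 ratio -1.43) and Hand1 (19.1 against 39.9 CPM, log2 ratio -1.02) were higher on plate 4 in all cells, and Rhox5 also within endothelial-marker cells (11.5 against 37.1 CPM, log2 ratio -1.61). Of all genes, 6.46% were 2-fold higher on plate 3 and 5.35% on plate 4 in all cells. Within endothelial-marker cells these shares were 7.90% and 5.53%. Of 15 mesenchymal and matrix genes, the PDGF receptors Pdgfra (8.8 against 33.8 CPM, log2 ratio -1.83) and Pdgfrb (23.2 against 54.2 CPM, log2 ratio -1.19) were higher on plate 4, and within endothelial-marker cells Col1a1 (14.9 against 1.2 CPM, log2 ratio 2.86) and Col1a2 (34 against 7.19 CPM, log2 ratio 2.09) were higher on plate 3. For Col1a1 there, 1 cell gave 97% of the plate 3 reads. Basement membrane genes of endothelium lay near 0, with Col4a1 at 609.5 against 513 CPM (log2 ratio 0.25) and Sparc at 1628 against 1569 CPM (log2 ratio 0.05). Of 6 anterior Hox genes in all cells, Hoxb1 was higher on plate 3 (10.2 against 1.97 CPM, log2 ratio 1.92) and Hoxd1 on plate 4 (6.97 against 22.8 CPM, log2 ratio -1.58). The 2 of 15 mesenchymal and matrix genes past 2-fold in all cells were close to the 11.8% of all genes past it in either direction.

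Genes of general cell programmes can be read against the 11.8% of all genes past 2-fold in all cells and 13.4% within endothelial-marker cells. Of 16 cell cycle genes, Cdkn1a, an inhibitor of cyclin-dependent kinases, was past 2-fold in all cells, higher on plate 4 (14.7 against 46.7 CPM, log2 ratio -1.60), and the list's median was 0.16. Cdk1 was at 676 against 675 CPM (log2 ratio 0.00) and Top2a at 511 against 450.3 CPM (log2 ratio 0.18). Within endothelial-marker cells cyclin D2 (Ccnd2) was higher on plate 3 (229 against 74 CPM, log2 ratio 1.61), with 45 of 66 and 20 of 44 cells at 20 CPM. Of 13 glucose uptake and glycolysis genes, the hexokinase Hk1 was higher on plate 3 in both sets (34.6 against 13.4 CPM, log2 ratio 1.31 in all cells), and Bnip3 within endothelial-marker cells (59.4 against 27.3 CPM, log2 ratio 1.09), while Ldha was at 5342 against 5051 CPM (log2 ratio 0.08). Of 10 early response and heat shock genes, Dusp1 was past 2-fold in all cells (92.9 against 29.2 CPM, log2 ratio 1.64), and Dusp1 and Fos (56.7 against 26.6 CPM, log2 ratio 1.06) within endothelial-marker cells, both higher on plate 3.

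Of 10 p53 target genes, Cdkn1a and Trp53inp1 (10.6 against 22.8 CPM, log2 ratio -1.03) were 2-fold higher on plate 4 in all cells, where 5.35% of all genes were, and Ccng1 (84 against 181 CPM, log2 ratio -1.10) with both of them within endothelial-marker cells, where 5.53% were. On plate 4, 1 cell gave 58.8% of the Cdkn1a reads and 47.5% of the Trp53inp1 reads of the endothelial-marker cells. The list's median was -0.47 in all cells and -0.46 within endothelial-marker cells. Of 12 germline genes, Ddx4, an RNA helicase of germ cells, alone passed 10 CPM, at 14.3 CPM on plate 4 in 10 cells at 20 CPM, with 1 read on plate 3.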

How the data were processed

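The authors made the deposited count table from Smart-seq2 libraries. Their processing notes name HISAT2 2.1.0, featureCounts and GRCm38. Each value is a raw count of 75-base single-end reads for 1 gene in 1 cell. Strand and multi-mapping settings are not given in the sources used here, so antisense partners, paralogs and pseudogenes are uncertain. Of 55487 gene identifiers, 55141 had a symbol, and those without took 0.0124% of reads.

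Wells with at least 100000 reads were kept, with no doublet filter. Counts were summed per plate and given as CPM. The log2 ratio of plate 3 over plate 4 was taken after adding 1 CPM, for genes with at least 10 CPM on either plate, and 2-fold was the limit. Each plate is 1 sample, so there was no test. Shares have 95% Clopper-Pearson intervals, a count of 0 is limited by 3 reads or cells, and sums have exact Poisson intervals. All intervals and limits cover counting error only, and those on reads treat amplified reads as independent.

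Named genes were the markers, up to 12 genes at each end of the ratios with at least 20 CPM on the higher plate and a share of cells differing by 25 percentage points, without ribosomal protein, mitochondrial and unnamed gene models, and up to 4 members of each list past 2-fold. Some genes that met this rule are counted but not reported here. A few further list members, Rnf128 within endothelial-marker cells and values of other plates were named after their values were seen. The members and lists were chosen with earlier results of these data known. Of the alternatives, 20 were planned and 2, leaving out Xist cells and using protein-coding genes only, were added after seeing the data. Computation used Python 3.11.15, pandas 2.3.3, SciPy 1.17.1, edgeR 4.0.16 and DESeq2 1.42.0 (the last 2 for scaling only), and was tested on simulated data. The E7.5 cells were not used here.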

Additional observations from a re-analysis of the deposited data

How the results depend on the processing

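Over the 21 alternatives that change cells or values, 75 of the 94 shares and gene percentages kept within their spread or within 1.5 times, and 19 moved. With the markers Kdr, Flt1, Emcn, Ramp2 and Egfl7 the shares of endothelial-marker cells were 92.8% on plate 3 and 76.8% on plate 4. Percentages of genes at least 2-fold higher are given for plate 3 and then plate 4. With a pseudocount of 10 CPM they were 2.87% and 2.22% in all cells and 3.52% and 2.26% in endothelial-marker cells. With a minimum of 1 CPM they were 10.4% and 8.97%, and 13.3% and 9.51%. With a minimum of 50 CPM they were 3.8% and 2.82%, and 3.93% and 2.80%. In wells of columns 1 to 6 the plate 4 value was 8.47% in all cells and 9.92% in endothelial-marker cells, and in columns 7 to 12 the plate 3 value in endothelial-marker cells was 12.5%. Leaving out endothelial-marker cells that also met the haemangioblast or another class left 8 cells on plate 3 and 2 on plate 4, with 40.02% and 23.3%, and the log2 ratio of Snhg14 (0.78) reversed there. Keeping only cells with Kdr removed no cell. Over the 18 alternatives that can change a ratio, 1407 of 1440 values of named genes stayed on their side of 2-fold, 32 moved and 1 reversed. Beyond the counts of genes and cells each construction leaves, the cause was not tested. No paired analysis was possible because each plate is 1 sample and wells of the plates share no number that marks an animal. One plate on each side leaves no replicate check, and plate, genotype, gate and animal cannot be told apart.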
